A study of Mus musculus with 17 samples.

Results

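The subject is the nuclear-encoded subunits of oxidative phosphorylation, taken complex by complex in 3134 cells, a mouse mammary epithelial cell line. Members were the symbols of the platform annotation that name subunits of complex I (Nduf with a letter a, b, c, s or v and a number), complex II (Sdha to Sdhd), complex III (Uqcr), cytochrome c oxidase (Cox4 to Cox8) or ATP synthase (Atp5). This gave 81 of the 19938 genes measured: 33 in complex I, 4 in complex II, 8 in complex III, 19 in complex IV and 17 in complex V. Ndufa4 and Ndufa4l2 carry complex I names and were counted with complex IV, where the Ndufa4 protein is now placed. Each gene was read on its brightest singly named probe set; 16 members had more than 1. A further 6 probe sets carried 2 symbols each (Cox7c with Gm12338, Ndufb4 with Ndufb4b, Ndufs5 with Ndufs5-ps) and were not used, so Cox7c and Ndufb4 are not analysed here.

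The cells carried a tetracycline-regulated transactivator, held off by tetracycline, and RNA was taken 48 h after plating without the drug (induced) or with it (repressed). In the dnBrg1, dnChd4 and dnSnf2h lines, induction switched on the transactivator together with a stably integrated, Flag-tagged dominant negative form of the chromatin remodeler Brg1, Chd4 or Snf2h, with 2 induced and 2 repressed arrays per line. In the control line, 3134Tet, induction switched on the transactivator alone, with 3 induced and 2 repressed arrays. All 17 samples were thus of 1 parental line, every repressed group also carried its integrated construct, and the labels do not say how many clones stand behind a line or whether replicates were separate cultures, so p-values here rest on variation among samples that could be technical.

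The respiratory chain passes electrons from NADH (through complex I) or succinate (through complex II) to ubiquinone, then through complex III and cytochrome c to complex IV, which reduces oxygen. Complexes I, III and IV pump protons, and complex V uses the gradient to make ATP. Complex I has a conserved catalytic core surrounded by many accessory subunits that serve its assembly and stability, and several complex IV subunits exist as tissue-specific isoforms. Complexes I, III, IV and V also hold mitochondrially encoded subunits, so the nuclear and mitochondrial genomes must both supply parts.

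Values are log2 signals. A difference is the mean of the first-named group minus the mean of the second, tested with limma, and "called" means an adjusted p under 0.05 over all 19938 genes. Probe sets differ in brightness for reasons other than RNA amount, so no subunit's level is set against another's. In bulk RNA, fewer cells of a type and less RNA per cell cannot be told apart. Of the 8 luminal epithelial markers, 3 lay under the 30th percentile of all genes (log2 4.77), Epcam among them, while none of the 8 fibroblast or mesenchymal markers did. Libraries of the control line grouped against their labels: control repressed replicate 1 was most like control induced replicate 2 (r = 0.9953 across genes), and control induced replicate 1 was most like control repressed replicate 2 (r = 0.9945). Whether these 2 libraries were exchanged was not tested, and an exchange would change what the control values as labelled mean. The dominant negative lines were therefore fitted as 12 arrays of their own, and results that use the control line are given with and without these 2 libraries. Both dnSnf2h repressed libraries and dnSnf2h induced replicate 2 were most like a dnChd4 library of the same treatment.

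Of the 15 members called higher in any dominant negative induction, 3 were called in every one: Ndufa3, Ndufb7 and Ndufs4, all accessory subunits of complex I. Among all genes, 921 of the 3024 called higher in any line were called in every one (30.5%), a larger share than among the members. Ndufs4 is part of the electron-input arm, and its loss causes Leigh syndrome; Ndufb7 is a cysteine-rich subunit on the intermembrane-space side of the membrane arm; Ndufa3 is a small membrane-arm subunit. The ATP synthase gene Atp5g1, which encodes 1 of the precursors of the ring-forming subunit c, was called lower in both dnChd4 and dnSnf2h cells. These 4 genes were chosen from the calls just given, after their values were seen. The 250 bases before their RefSeq start sites are shown for build GRCm38.p6, each written 5′ to 3′ on the strand of the gene. Words of the motif search are in capitals. They lie at chr7:3617123-3617372 (plus strand, Ndufa3), chr8:83566508-83566757 (plus, Ndufb7), chr13:114388095-114388344 (minus, Ndufs4) and chr11:96075632-96075881 (minus, Atp5g1).
Ndufa3: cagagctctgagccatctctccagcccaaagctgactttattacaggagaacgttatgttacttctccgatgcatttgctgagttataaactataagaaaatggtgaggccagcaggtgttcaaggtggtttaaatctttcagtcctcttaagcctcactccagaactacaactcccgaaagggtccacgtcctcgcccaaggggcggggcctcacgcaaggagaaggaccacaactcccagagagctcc
Ndufb7: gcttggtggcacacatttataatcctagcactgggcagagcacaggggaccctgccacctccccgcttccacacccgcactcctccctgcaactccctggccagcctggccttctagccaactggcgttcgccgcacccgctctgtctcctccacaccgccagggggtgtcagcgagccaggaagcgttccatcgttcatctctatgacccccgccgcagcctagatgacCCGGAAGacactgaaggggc
Ndufs4: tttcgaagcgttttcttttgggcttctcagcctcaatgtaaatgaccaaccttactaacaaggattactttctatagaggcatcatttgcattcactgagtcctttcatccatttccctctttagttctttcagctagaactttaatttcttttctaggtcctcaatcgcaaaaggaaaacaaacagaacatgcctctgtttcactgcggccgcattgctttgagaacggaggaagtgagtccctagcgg
Atp5g1: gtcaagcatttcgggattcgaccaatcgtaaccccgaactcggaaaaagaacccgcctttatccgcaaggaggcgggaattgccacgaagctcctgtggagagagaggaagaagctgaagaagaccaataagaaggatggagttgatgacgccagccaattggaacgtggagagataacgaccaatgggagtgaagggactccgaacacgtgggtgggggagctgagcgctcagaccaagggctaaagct
Words were sought on both strands in the RefSeq window of 250 bases before to 50 bases after the start, which 66 of the 81 members had. The NRF1 word (GCGC, any base, then TGCGC) was present in 24.2% of these members, against 5.19% of all 27025 genes with a window. The ETS word CCGGAAG was present in 25.8% of members, against 9.93% of all genes. The YY1 word AAGATGGC, which was added after the promoters had been looked at, was present in 15.2% of members, against 3.19% of all genes. Different words overlapped in 0 of the member windows. Of the 4 promoters printed, Ndufb7 holds the ETS word, starting 20 bases before its start site; Ndufa3 and Ndufs4 hold the YY1 word in the 50 bases after the start, which are not printed; and Atp5g1 holds none of the 3 words. A match is a description of letters in a window and does not show binding.

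Ndufa3 had 9.35 and 9.26 log2 units in dnBrg1 induced cells, against 8.72 and 8.91 in dnBrg1 repressed cells. In the dnChd4 line it had 9.23 and 9.29 in induced cells, against 8.65 and 8.66 in repressed cells. In the dnSnf2h line it had 9.33 and 9.12 in induced cells, against 8.86 and 8.38 in repressed cells. In all 3 lines both induced arrays were above both repressed arrays, by 0.49 (SE 0.135, adjusted p = 0.022) for dnBrg1, 0.60 (SE 0.135, adjusted p = 0.00513) for dnChd4 and 0.61 (SE 0.135, adjusted p = 0.00515) for dnSnf2h.

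Ndufs4 had 8.72 and 8.86 in dnBrg1 induced cells, against 8.23 and 8.50 in dnBrg1 repressed cells. It had 8.69 and 8.76 in dnChd4 induced cells, against 8.21 and 8.28 in repressed cells of that line, and 8.75 and 8.79 in dnSnf2h induced cells, against 8.06 and 8.42 in repressed cells. Its groups did not overlap in any of the 3 lines, with differences of 0.42 (SE 0.123, adjusted p = 0.0317), 0.47 (SE 0.123, adjusted p = 0.0129) and 0.53 (SE 0.123, adjusted p = 0.0067) for dnBrg1, dnChd4 and dnSnf2h. Ndufb7 had 9.02 and 9.01 in dnBrg1 induced cells, against 8.61 and 8.70 in repressed cells. It had 9.15 and 9.13 in dnChd4 induced cells, against 8.80 and 8.88 in repressed cells, and 9.22 and 9.27 in dnSnf2h induced cells, against 8.94 and 8.88 in repressed cells. Its differences were smaller, 0.36, 0.29 and 0.33 in the same order, and the replicates lay within 0.1 of each other in every group.

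Atp5g1 had 8.83 and 8.85 in dnChd4 induced cells, against 9.15 and 9.43 in dnChd4 repressed cells, a difference of -0.45 (SE 0.105, adjusted p = 0.00731). In the dnSnf2h line it had 8.94 and 8.93 in induced cells, against 9.34 and 9.32 in repressed cells, a difference of -0.40 (SE 0.105, adjusted p = 0.0157). In the dnBrg1 line it had 8.996 and 9.01 in induced cells, against 8.98 and 9.17 in repressed cells, and these groups overlapped (difference -0.07, adjusted p = 0.77). The dnBrg1 induction minus the dnChd4 induction was 0.38 for this gene (SE 0.149, adjusted p = 0.37), so a difference between those lines was not called. Its paralogs Atp5g2 and Atp5g3, which encode precursors of the same mature subunit, were not called in any induction: Atp5g2 differed by -0.08, -0.23 and -0.24 and Atp5g3 by 0.10, 0.08 and -0.09 in dnBrg1, dnChd4 and dnSnf2h.

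**Figure D1:**
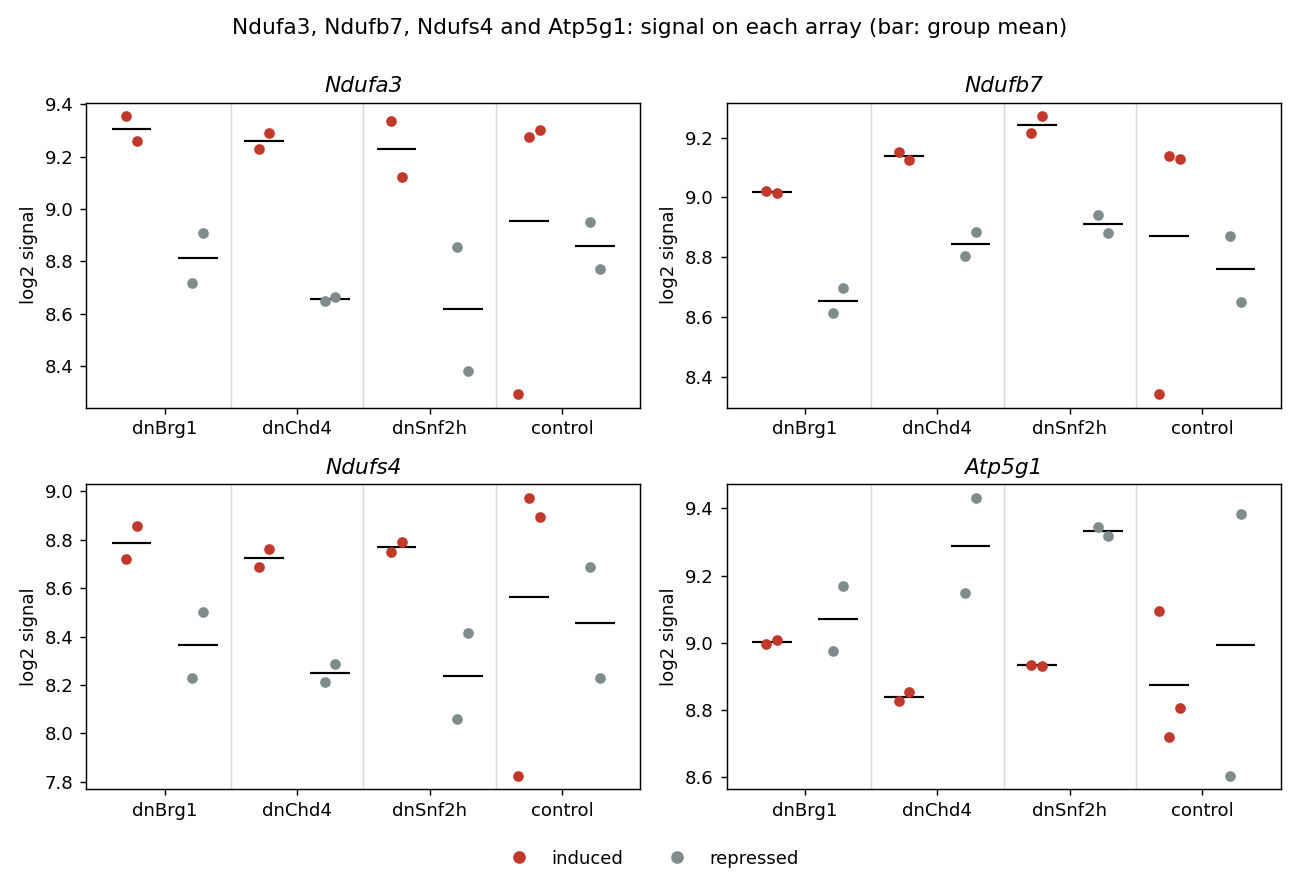
Log2 signal of Ndufa3, Ndufb7, Ndufs4 and Atp5g1 on each of the 17 arrays, by line, with induced arrays in red to the left of repressed arrays in grey and a bar at each group mean. The induced arrays of the 3 dominant negative lines lie above the repressed ones for the 3 complex I genes, while the control groups overlap. For these genes control induced replicate 1, which grouped against its label, is the lowest control array, and control induced replicates 2 and 3 are the highest.

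In the dnBrg1 line, 11 of the 81 members were called higher on induction and 0 lower, against a background of 8.01% of all genes higher and 6.22% lower. The share of members called higher was 13.6%. Complex I held 8 of the 11: Ndufb2, Ndufs5, Ndufa3, Ndufa1, Ndufs4, Ndufa8, Ndufb7 and Ndufa9. Complexes III, IV and V had 1 called member each, Uqcrb, Cox6a1 and Atp5md, and complex II had none. The median difference over the members was 0.12, against -0.0347 over all genes; by complex it was 0.19 for complex I, -0.11 for II, 0.16 for III, 0.09 for IV and 0.10 for V.

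Among complex I subunits in the dnBrg1 line, the largest difference was in Ndufb2, a small accessory subunit of the membrane arm, which had 6.32 and 6.41 in induced cells, against 5.62 and 5.77 in repressed cells (0.67, SE 0.116, adjusted p = 0.00124). Ndufs5, another cysteine-rich intermembrane-space subunit, had 7.74 and 7.86 in induced cells, against 7.09 and 7.27 in repressed cells (0.62, SE 0.115, adjusted p = 0.00209). A pseudogene, Ndufs5-ps, is listed for a further probe set, so the part of its copy in the Ndufs5 signal was not tested. Ndufa1, a short membrane-arm subunit encoded on the X chromosome, had 8.03 and 8.02 in induced cells, against 7.52 and 7.63 in repressed cells (0.45, SE 0.114, adjusted p = 0.0149). Ndufa8 rose by 0.39 (SE 0.0872, adjusted p = 0.00746) and Ndufa9, which lies where the 2 arms meet, by 0.33 (adjusted p = 0.0196). None of these groups overlapped.

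Outside complex I, Atp5md, a small membrane subunit of ATP synthase that takes part in dimer formation, had 11.69 and 11.47 in dnBrg1 induced cells, against 11.04 and 10.84 in dnBrg1 repressed cells (0.64, SE 0.137, adjusted p = 0.00533). Cox6a1, the isoform of subunit 6A found outside heart and skeletal muscle, had 9.97 and 9.94 in induced cells, against 9.32 and 9.57 in repressed cells (0.51, SE 0.12, adjusted p = 0.00941). Uqcrb, a ubiquinone-binding subunit of complex III, had 11.18 and 11.13 in induced cells, against 10.90 and 10.77 in repressed cells, and passed narrowly (0.32, SE 0.1, adjusted p = 0.049). Just beyond the threshold lay Atp5d (0.28, adjusted p = 0.0508) and Cox4i1 (0.27, adjusted p = 0.0528). In these same dnBrg1 arrays, 6 of the 8 fibroblast or mesenchymal markers were called lower, and their mean level was 9.16 to 9.23 in induced cells, against 9.73 to 9.75 in repressed cells; the part of this in the subunit differences was not tested.

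In the dnChd4 line, 6 members were called higher and 2 lower, against a background of 11.2% higher and 6.82% lower, so the share of members called higher, 7.41%, was below that of all genes. All 6 were accessory complex I subunits: Ndufa3, Ndufb2, Ndufs4, Ndufa1, Ndufc1 and Ndufb7. Ndufb2 had 6.28 and 6.38 in induced cells, against 5.68 and 5.96 in repressed cells (0.51, SE 0.116, adjusted p = 0.00561). Ndufc1, a small membrane-arm subunit, had 9.95 and 10.10 in induced cells, against 9.59 and 9.69 in repressed cells (0.38, SE 0.0973, adjusted p = 0.0115), and its second probe set gave the same difference. Beside Atp5g1, the member called lower was Cox6a2, the heart and skeletal muscle isoform of subunit 6A, with 6.19 and 6.29 in induced cells, against 6.53 and 6.93 in repressed cells (-0.49, SE 0.122, adjusted p = 0.0105). Of the 5 muscle markers, none was called in this line. Of the 8 fibroblast or mesenchymal markers, 1 was called higher and 0 lower, unlike in the dnBrg1 line. Of the 6 basal or myoepithelial markers, 1 was called higher and 1 lower, and of the 5 macrophage markers 1 was called higher. Their part in the dnChd4 differences was not tested. The complex medians were 0.13 for I, -0.02 for II, 0.10 for III, 0.05 for IV and 0.02 for V.

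In the dnSnf2h line, 8 members were called higher and 1 lower, against a background of 9.2% higher and 8.34% lower; the share called higher was 9.88%. Complex I again held most of them, with 7: Ndufa3, Ndufs4, Ndufs5, Ndufs6, Ndufa13, Ndufc1 and Ndufb7. Ndufs5 had 7.39 and 7.51 in induced cells, against 7.12 and 6.78 in repressed cells (0.50, SE 0.115, adjusted p = 0.00672). Ndufs6, a zinc-binding subunit of the electron-input arm, had 8.53 and 8.54 in induced cells, against 8.29 and 7.90 in repressed cells (0.43, SE 0.118, adjusted p = 0.018). Its 2 induced arrays were within 0.1 of each other, while the repressed arrays were about as far apart as the difference itself. Ndufa13, also known as GRIM-19, rose by 0.35 (adjusted p = 0.0375) and Ndufc1 by 0.34 (adjusted p = 0.0245). The remaining member, Cox7a1, is the heart and skeletal muscle isoform of subunit 7A, and had 6.09 and 6.31 in induced cells, against 5.72 and 5.94 in repressed cells (0.37, SE 0.122, adjusted p = 0.0473). The median difference was 0.07 for complex I and between -0.09 and 0.02 for the others. Of the mesenchymal markers, 3 of 8 were called lower in this line, at a mean level of 9.33 to 9.62 in induced cells, against 9.70 to 9.75 in repressed cells, and their part in these differences was not tested.

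**Figure D2:**
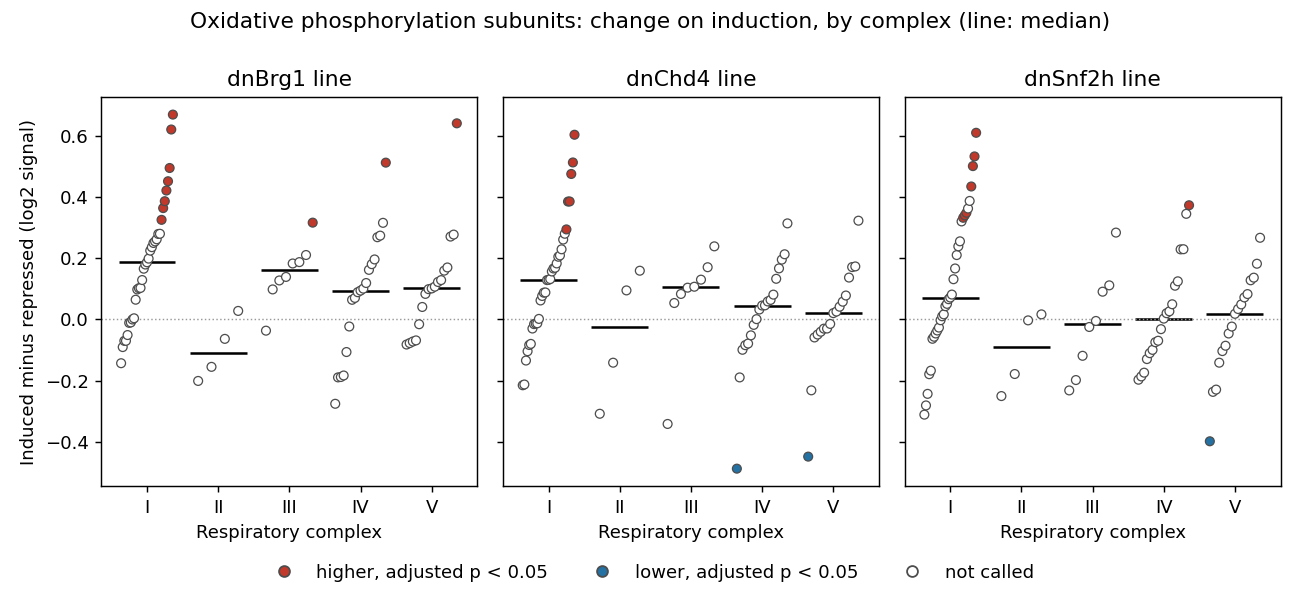
Induced minus repressed log2 signal of each of the 81 members in the 3 dominant negative lines, by respiratory complex, with called members filled red (higher) or blue (lower) and a line at each complex median. Complex I holds 8 of 11, 6 of 6 and 7 of 8 of the members called higher in dnBrg1, dnChd4 and dnSnf2h.

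The core subunits of complex I were not among the members called in the dominant negative inductions. Of the 33 complex I members, 6 are core subunits with bacterial counterparts (Ndufs1, Ndufs3, Ndufs7, Ndufs8, Ndufv1 and Ndufv2); none was called in any of the 3 inductions, and their differences ran from -0.07 to 0.13 in dnBrg1, -0.22 to 0.16 in dnChd4 and -0.18 to 0.17 in dnSnf2h. The 27 accessory subunits had 8, 6 and 7 called higher in these lines and none lower. Of all genes, 8.01%, 11.2% and 9.2% were called higher and 6.22%, 6.82% and 8.34% lower. At such shares, no call among 6 core subunits is near the background. This division was made after the values were seen and carries no test of its own. Ndufv1, which binds NADH and flavin, had 8.75 and 8.71 in dnChd4 induced cells, against 8.96 and 8.93 in repressed cells, without passing (-0.22, adjusted p = 0.13). Ndufs1, the large iron-sulfur subunit, stayed between -0.06 and -0.01 in all 3 lines, and Ndufs7 differed by -0.07, -0.10 and -0.18 in dnBrg1, dnChd4 and dnSnf2h.

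Complex II, which has no mitochondrially encoded subunit, gave no call among its 4 members in any of the 3 lines. Of all genes, 8.01%, 11.2% and 9.2% were called higher and 6.22%, 6.82% and 8.34% lower in dnBrg1, dnChd4 and dnSnf2h. No call among so few genes is near the background, as it is for the complex III and V subunits below. Sdhb, the iron-sulfur subunit of complex II, had the lowest adjusted p of its 4 members in dnChd4 cells. It had 8.42 and 8.40 in induced cells, against 8.64 and 8.79 in repressed cells (-0.31, adjusted p = 0.0604). Its induced arrays were also the lower ones in the dnBrg1 and dnSnf2h lines, by 0.20 and 0.25 on the log2 scale, with adjusted p of 0.271 and 0.132. Sdha, the flavoprotein, differed by -0.06, 0.16 and -0.00 in dnBrg1, dnChd4 and dnSnf2h. In complex III, the core protein Uqcrc1 and the Rieske protein Uqcrfs1 stayed within -0.23 to 0.14 without a call. In complex V, Atp5a1 and Atp5b, the alpha and beta subunits of the catalytic head, differed by -0.02 and -0.07 in dnBrg1, -0.03 and -0.05 in dnChd4, and -0.14 and -0.23 in dnSnf2h, with no call. The smallest adjusted p among these was 0.102, for Atp5b in dnSnf2h cells.

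Complex IV gave 1 call among its 19 members in each line (5.26%), higher in dnBrg1 and dnSnf2h and lower in dnChd4. The matching shares of all genes were 8.01%, 9.2% and 6.82%, so these counts are near the background. With 1 call a line, both members of a pair could not be called together. Of the subunit 6A pair, Cox6a1 was 0.51 higher in dnBrg1 and was not called at 0.31 in dnChd4 (adjusted p = 0.0917) or 0.34 in dnSnf2h (adjusted p = 0.0628), while Cox6a2 was at -0.28, -0.49 and -0.20 in these lines and passed in dnChd4. Of the 7A group, only Cox7a1 passed, in dnSnf2h; Cox7a2 and Cox7a2l stayed between -0.02 and 0.07. The widely expressed Cox4i1 was at 0.27, 0.20 and 0.23 in dnBrg1, dnChd4 and dnSnf2h, and Cox4i2, the lung and hypoxia isoform, was at -0.11, -0.10 and -0.11, without a call in either. Cox5a, Cox6b1, Cox6b2, Cox8a, Cox8b, Cox8c, Ndufa4 and Ndufa4l2 also gave no call; the highest of them was Ndufa4l2 in dnBrg1 cells, at 0.32 (adjusted p = 0.13). Cox8c lay under the 30th percentile of all genes.

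Set against each other, the 3 inductions shared 5 members called higher between dnBrg1 and dnChd4 (of 11 and 6), 4 between dnBrg1 and dnSnf2h (of 11 and 8), and 4 between dnChd4 and dnSnf2h (of 6 and 8). Over all genes the shared lists made up 70.7% of the dnBrg1 and 50.7% of the dnChd4 calls, 64.6% of the dnBrg1 and 56.2% of the dnSnf2h calls, and 62.7% of the dnChd4 and 76.2% of the dnSnf2h calls. Across the 81 members, differences correlated with r = 0.74 for dnBrg1 and dnChd4, 0.63 for dnBrg1 and dnSnf2h, and 0.73 for dnChd4 and dnSnf2h; over all genes r was 0.67, 0.69 and 0.77. Genes are not independent replicates, and the lines share the loss of tetracycline and the transactivator. All 3 differences were above 0 for 37 members and below 0 for 15.

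Tested directly, no member differed between any pair of inductions. Among all genes, the dnBrg1 induction minus the dnChd4 induction was called higher for 0.281% and lower for 0.993%; for dnBrg1 minus dnSnf2h these were 0.291% and 0.341%, and for dnChd4 minus dnSnf2h 0.125% and 0.00502%. At an unadjusted p under 0.05, limma gave 4, 7 and 2 members in these comparisons. The largest of these was Ndufb2, whose induction was 0.60 greater in dnBrg1 than in dnSnf2h (SE 0.164, adjusted p = 0.16). In the dnSnf2h line it had 6.14 and 6.36 in induced cells, against 6.12 and 6.23 in repressed cells, and these groups overlapped. With a median standard error of 0.142 for such a difference, these arrays could miss an inequality of that order.

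The calls depended on which arrays shared the estimate of the spread. When the control line was fitted together with the other lines, as 17 arrays, no member was called in any dominant negative induction, and the smallest adjusted p of Ndufa3, Ndufb7 and Ndufs4 in any line was 0.395; of all genes, 0.181% were then higher and 0.16% lower in dnBrg1, 0.0903% and 0.00502% in dnChd4, and none and 0.00502% in dnSnf2h. At an unadjusted p under 0.05 it gave 6 members higher in dnBrg1, 2 higher and 2 lower in dnChd4, and 4 higher and 4 lower in dnSnf2h. In a fit of 15 arrays, without the 2 control libraries that grouped against their labels, 12 members were called higher and 0 lower in dnBrg1 (8.39% and 6.54% of all genes), 6 and 2 in dnChd4 (11.6% and 7.15%), and 7 and 2 in dnSnf2h (9.68% and 8.67%). Single libraries of the lines also moved the counts. In dnBrg1, the 11 higher and 0 lower became 2 and 0 without induced replicate 1, 3 and 0 without induced replicate 2, and 4 and 1 without repressed replicate 1. In dnChd4, the 6 higher and 2 lower became 1 higher and 3 lower without repressed replicate 1, 4 and 0 without repressed replicate 2, 3 and 0 without induced replicate 1, and 1 and 2 without induced replicate 2. In dnSnf2h, the 8 higher and 1 lower became 12 and 4 without repressed replicate 1, 2 and 2 without repressed replicate 2, 4 and 0 without induced replicate 1, and 3 and 0 without induced replicate 2; fitted on its own 4 arrays, this line gave no called member. After quantile normalization the split in dnChd4 was 6 higher and 4 lower and that in dnSnf2h 11 higher and 3 lower. With the dimmest 30% of genes removed, 13 of 79 members were called higher in dnBrg1, 6 in dnChd4 and 10 in dnSnf2h, against 12.3%, 17.1% and 14.0% of all genes then tested.

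The control line measures loss of tetracycline and gain of the transactivator alone. As labelled, no member and no other gene was called (845 genes, none of them members, had an unadjusted p under 0.05 by limma; 0% called in either direction), and the members' differences ran from -0.20 to 0.25. The groups overlapped for Ndufs4, with 7.83, 8.97 and 8.89 in control induced cells, against 8.69 and 8.23 in control repressed cells. Ndufa3 had 8.29, 9.27 and 9.30 in induced cells, against 8.95 and 8.77 in repressed cells, and Ndufb7 had 8.34, 9.14 and 9.13 in induced cells, against 8.87 and 8.65 in repressed cells. For all 3, induced replicate 1 was the lowest array of the control line, and induced replicates 2 and 3 were the highest.

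Without control induced replicate 1 and control repressed replicate 1, 2 induced arrays stood against 1 repressed array, whose spread is assumed to be that of the other groups. In that fit 13 members were called higher and 4 lower, against 15.4% and 11.2% of all genes. Those higher were led by Ndufa1 (0.70, SE 0.136, adjusted p = 0.000854), Ndufs4 (0.70, SE 0.146, adjusted p = 0.00148) and Cox6a1 (0.60, SE 0.15, adjusted p = 0.00657), and included Ndufa3 (0.52) and Ndufb7 (0.48). Those lower were Uqcrq, a small complex III subunit (-0.69, adjusted p = 0.00334), Atp5g1 (-0.62, adjusted p = 0.00135), Sdhb (-0.57, adjusted p = 0.0035) and Sdhd (-0.40, adjusted p = 0.0212). Over all 81 members, 55 kept the sign they had as labelled. Both contrasts share control arrays, so agreement in sign is in part built in. It does not show what the 2 libraries changed. The 8 members called in more than 1 dominant negative line differed in the same direction here. Ndufa1 and Ndufs4 were at 0.70, Ndufb2 at 0.53, Ndufa3 at 0.52 and Ndufb7 at 0.48. Ndufs5 was at 0.40, Ndufc1 at 0.34 and Atp5g1 at -0.62. The matching share over all genes was not counted, so it is not known whether this is particular to the members. Cell-type markers differed in the same fit: of the 8 fibroblast or mesenchymal markers 1 was called higher and 3 lower, with Col1a2 at -1.01 and Vim at -0.55, and of the 6 basal or myoepithelial markers Acta2 was higher (1.93) and Krt14 lower (-1.06). Among the 8 luminal epithelial markers the largest difference was in Cldn7, at -0.51, while Krt8 was at 0.27. The part of all these markers in the subunit differences was not tested.

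The dominant negative inductions minus the control induction gave no called member in the 17-array fit; at an unadjusted p under 0.05 there were 3, 0 and 1 members for dnBrg1, dnChd4 and dnSnf2h. Of all genes, 0.0552% were called higher and 0.0351% lower for dnBrg1, 0.0351% and 0.00502% for dnChd4, and none for dnSnf2h (1121 at an unadjusted p under 0.05). For Ndufs4 the difference was 0.31, 0.37 and 0.43, with a standard error of 0.399, and for Ndufa3 it was 0.40, 0.51 and 0.51, with a standard error of 0.36. Each of these values lay within 1.5 standard errors of 0, so neither a shared nor a separate response can be read from them. Without the 2 control libraries, which leaves 1 control repressed array, they did not stay. Ndufs4 was then at -0.28, -0.23 and -0.17 and Ndufa3 at -0.02, 0.09 and 0.09, in the same order. With 15 arrays, 1 member was called, Uqcrq in dnBrg1 minus control (0.79, adjusted p = 0.0284), and none in the other pairs, against 2.93% of all genes higher and 4.02% lower for dnBrg1, 0.507% and 0.311% for dnChd4, and 0.682% and 1.39% for dnSnf2h. The 3 comparisons share the control arrays.

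**Figure D3:**
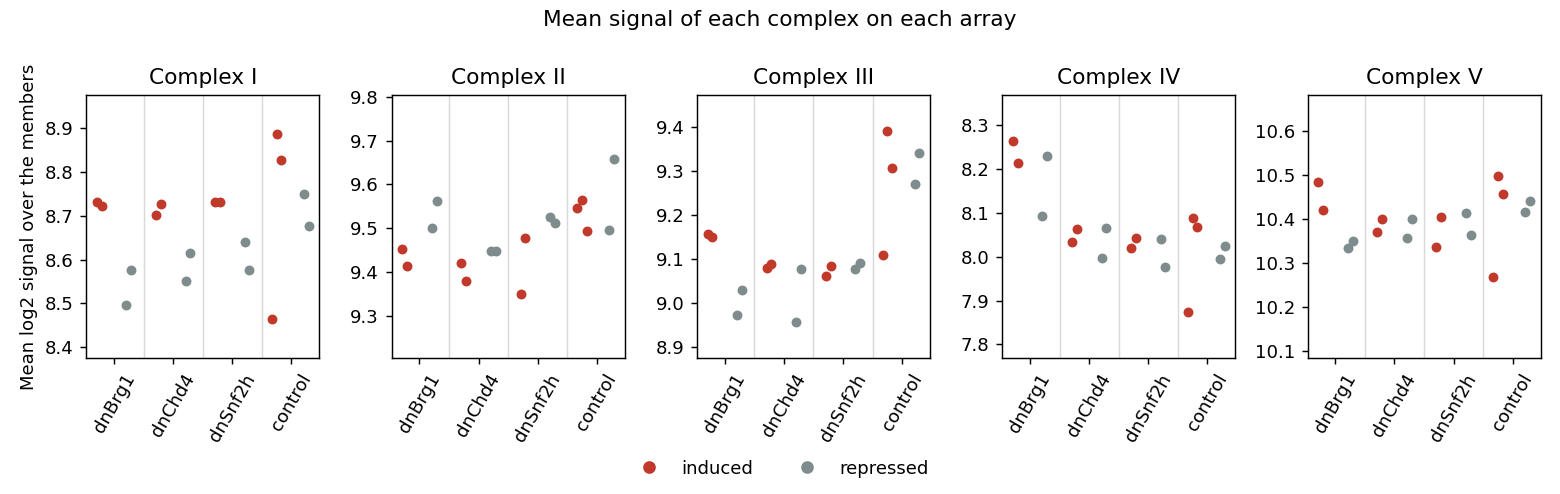
Mean log2 signal over the members of each complex on every array, by line, with induced arrays in red to the left of repressed arrays in grey. The vertical axes span the same number of log2 units but start at different values. In complex I the induced arrays lie above the repressed arrays in the 3 dominant negative lines. In the control line induced replicate 1, which grouped against its label, is the lowest array for complex I, and induced replicates 2 and 3 are the highest.

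The largest tested difference among the members lay between repressed lines, and members were called between the repressed dnBrg1 line and both others. Repressed dnBrg1 cells minus repressed dnChd4 cells gave 5 members higher and 9 lower, against 8.07% and 6.35% of all genes. Repressed dnBrg1 cells minus repressed dnSnf2h cells gave 4 higher and 11 lower, against 7.61% and 6.72%. These comparisons share the dnBrg1 repressed arrays. Repressed dnChd4 cells minus repressed dnSnf2h cells gave no called member, with 5 at an unadjusted p under 0.05 by limma and 0.00502% and 0.01% of all genes called higher and lower.

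Cox7b2, a testis isoform of subunit 7B, was the largest difference among the members. It had 5.37 and 5.97 in repressed dnBrg1 cells, against 3.86 and 3.85 in repressed dnChd4 cells (1.82, SE 0.149, adjusted p = 1.66e-06) and 4.23 and 3.98 in repressed dnSnf2h cells (1.57, SE 0.149, adjusted p = 7.47e-06). The dnBrg1 induced arrays were also high, at 5.47 and 5.50, and all 5 control arrays lay between 3.75 and 4.07. Its mean over all arrays was under the 30th percentile of all genes, and every array outside the dnBrg1 line lay under that level. The common isoform gene Cox7b was not called in either comparison (-0.05 in both).

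Several complex I subunits were lower in repressed dnBrg1 cells. Ndufa1 had 7.52 and 7.63 in repressed dnBrg1 cells, against 7.97 and 8.32 in repressed dnChd4 cells (-0.57, SE 0.114, adjusted p = 0.00323) and 8.46 and 8.31 in repressed dnSnf2h cells (-0.81, SE 0.114, adjusted p = 0.000256). Ndufb11, an accessory membrane-arm subunit that is X-linked like Ndufa1, had 9.02 and 9.19 in repressed dnBrg1 cells, against 9.73 and 9.78 in repressed dnChd4 cells (-0.65, adjusted p = 0.0003) and 9.85 and 9.69 in repressed dnSnf2h cells (-0.67, adjusted p = 0.000282). The repressed dnBrg1 arrays did not overlap the repressed dnChd4 or dnSnf2h arrays for either gene. Ndufa8 was lower by similar amounts in both (-0.56 and -0.57), as was Ndufa2 (-0.52 and -0.70), and Cox6a2 was lower than in dnChd4 cells (-0.54, adjusted p = 0.00745). The core subunit Ndufs3 was among the other members called lower in both, at -0.49 and -0.49, as were Atp5a1 and Atp5pb.

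Fewer members were higher in repressed dnBrg1 cells. Cox6c, a small subunit of complex IV, had 11.37 and 11.29 in repressed dnBrg1 cells, against 10.99 and 10.93 in repressed dnChd4 cells (0.37, adjusted p = 0.0132) and 10.84 and 11.00 in repressed dnSnf2h cells (0.42, adjusted p = 0.00712). Ndufs8 and Cox6b1 were higher than in dnChd4 cells (0.33 and 0.32), as was Ndufb9 (0.31), and Ndufs6 and Ndufc2 were higher than in dnSnf2h cells (0.54 and 0.32). With 17 arrays these counts became 1 higher and 5 lower against dnChd4 (2.2% and 1.83% of all genes) and 1 higher and 6 lower against dnSnf2h (2.06% and 1.83%). Against dnChd4, the 14 calls became 4 without dnChd4 repressed replicate 2, 9 without dnChd4 repressed replicate 1, 6 without dnBrg1 repressed replicate 1 and 9 without dnBrg1 repressed replicate 2; the 15 against dnSnf2h became 8 without dnBrg1 repressed replicate 1. The split against dnChd4 was 8 higher and 8 lower after quantile normalization and 2 higher and 11 lower after centring each array on its median.

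The control line also had its own levels, which were not tested against the other lines. Cox7a2, the isoform of subunit 7A found in most tissues, lay between 8.15 and 8.30 on the 5 control arrays, while the 12 other arrays lay between 9.37 and 9.61. Ndufs6 lay between 7.27 and 7.79 in the control line and at 7.90 or above elsewhere, and Cox6c lay between 9.95 and 10.48 in the control line and at 10.84 or above elsewhere. Atp5k, a small membrane subunit of ATP synthase, was the other way round, between 8.33 and 8.89 in the control line and at 7.98 or below elsewhere. These 4 genes were chosen after their values were seen. In all, the 5 control arrays lay above the 12 others for 7 of the 81 members and below them for 4, against 3.95% and 2.34% of all genes. Over the 81 members the highest and lowest of the 8 group means differed by 0.13 to 1.82, with a median of 0.48.

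**Figure D4:**
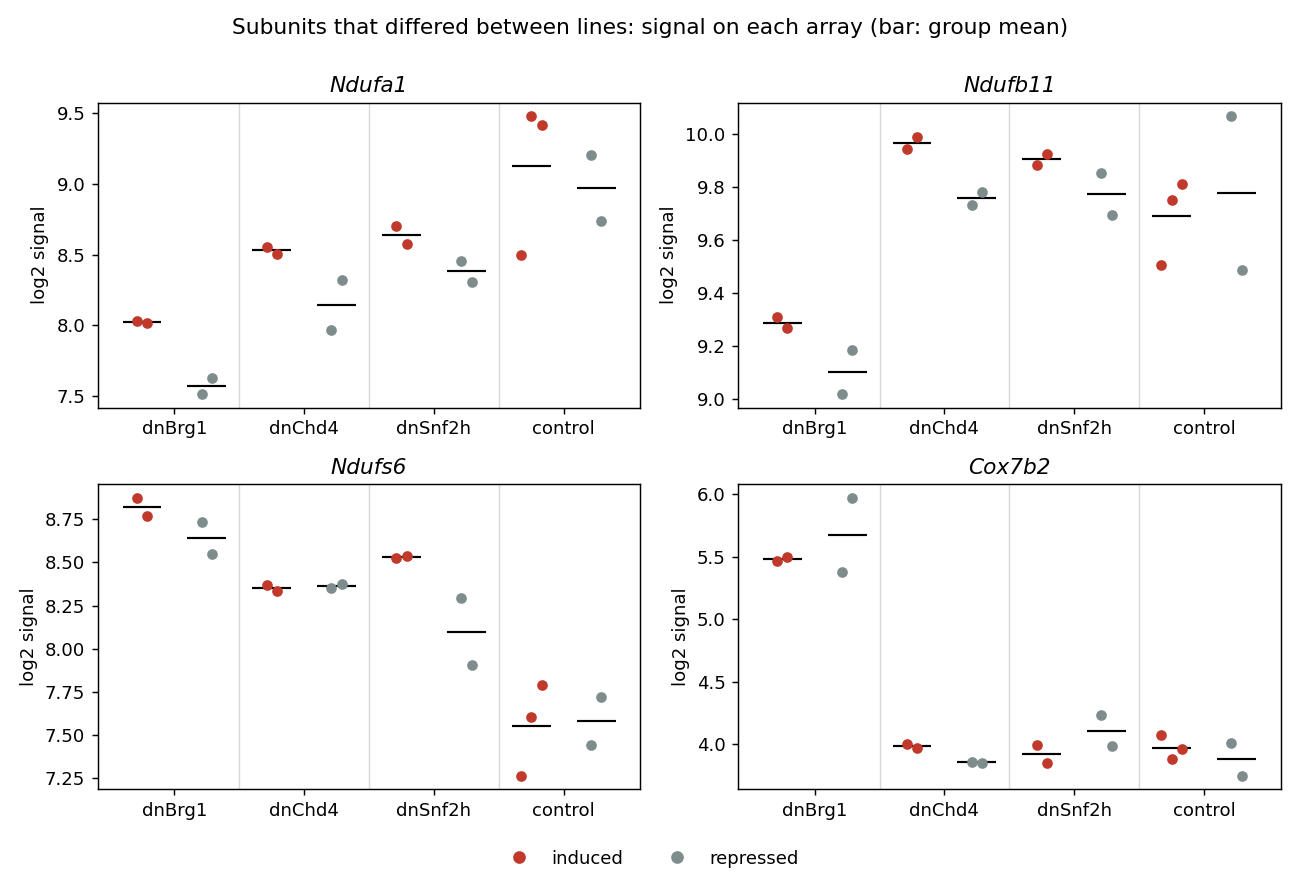
Log2 signal of Ndufa1, Ndufb11, Ndufs6 and Cox7b2 on each of the 17 arrays, by line, with induced arrays in red to the left of repressed arrays in grey and a bar at each group mean. By group mean, Ndufa1 and Ndufb11 are lowest in the dnBrg1 line, Cox7b2 is highest there, and Ndufs6 is lowest in the control line. For Ndufa1, dnChd4 repressed replicate 1 lies below the dnBrg1 induced arrays.

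Genes that build and regulate the complexes were read from lists chosen with earlier results of these data known. Of 41 assembly factors, 9 were called higher and 4 lower in dnBrg1, 8 and 4 in dnChd4, and 7 and 5 in dnSnf2h, with medians of 0.08, 0.02 and 0.01. Over all genes, 8.01% were higher and 6.22% lower in dnBrg1, 11.2% and 6.82% in dnChd4, and 9.2% and 8.34% in dnSnf2h. Cox19, a small twin-cysteine protein needed for cytochrome c oxidase assembly, rose in all 3, by 0.72 (adjusted p = 0.000256), 0.98 (adjusted p = 1.29e-05) and 0.76 (adjusted p = 0.000122). Cox14, which helps regulate Cox1 synthesis, rose by 0.81 in dnChd4 and 0.63 in dnSnf2h, and the copper chaperone Cox17 by 0.49 in dnBrg1 and 0.43 in dnSnf2h (0.33, adjusted p = 0.0533, in dnChd4). The complex I assembly factor Ndufaf4 fell in all 3, at -0.37, -0.58 and -0.48 in dnBrg1, dnChd4 and dnSnf2h.

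Of 16 regulators of mitochondrial gene expression, none was called higher in any line. Of all genes, 8.01%, 11.2% and 9.2% were called higher in dnBrg1, dnChd4 and dnSnf2h, so no call among 16 genes is near the background. In the same order, 1, 3 and 5 regulators were called lower, against 6.22%, 6.82% and 8.34% of all genes. The single lower call in dnBrg1 is at that background. The median differences were -0.20, -0.09 and -0.26. Pprc1, a coactivator related to PGC-1, fell by 0.49 in dnChd4 (adjusted p = 0.00171) and by 0.59 in dnSnf2h (adjusted p = 0.00048). Ppargc1b, another coactivator of that family, was lower in dnBrg1 (-0.36, adjusted p = 0.0118) and in dnSnf2h (-0.33, adjusted p = 0.0148). Twnk, the mitochondrial DNA helicase, was at -0.54 in dnChd4 and -0.58 in dnSnf2h, and Ssbp1, which binds single-stranded mitochondrial DNA, was at -0.43 in dnChd4, all past the threshold.

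Of 15 tricarboxylic acid cycle genes, 2 were called higher and 1 lower in dnBrg1, 2 and 1 in dnChd4, and 1 and 2 in dnSnf2h. Over all genes, 8.01% were higher and 6.22% lower in dnBrg1, 11.2% and 6.82% in dnChd4, and 9.2% and 8.34% in dnSnf2h. These shares hold for the lists below as well, and lists this short can hold counts of 1 or 2 at such shares. Ogdh, a subunit of the 2-oxoglutarate dehydrogenase complex, was higher in all 3, by 0.55, 0.68 and 0.64, and fumarase Fh1 was lower in dnChd4 (-0.33) and dnSnf2h (-0.45). Of 12 outer membrane and mass markers, 1 was called higher in dnBrg1 (Mfn1, a fusion GTPase), 2 lower in dnChd4 and 3 lower in dnSnf2h. The import pore gene Tomm40 was among the lower ones, at -0.56 in dnChd4 (adjusted p = 0.00091) and -0.67 in dnSnf2h (adjusted p = 0.000282). Of 4 carriers and remaining subunits, only Atpif1, the inhibitor of ATP synthase, was called, lower in dnBrg1 (-0.51, adjusted p = 0.00205). The 2 mitochondrially encoded genes measured were not called in any line. In the control line as labelled, no member of these lists was called.

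These calls, too, depended on the control libraries. With 17 arrays, no assembly factor, regulator or tricarboxylic acid cycle gene was called in any dominant negative induction, while with 15 arrays the regulators called lower were 2, 3 and 5 in dnBrg1, dnChd4 and dnSnf2h. The control line without the 2 libraries keeps 1 repressed array, so only sizes of differences are given for these lists. Cox19 was then 1.36 higher, Ndufaf4 was at -1.09, Pprc1 at -1.09, Tomm40 at -1.13 and Ogdh at 0.64. Twnk was at -0.30 and Atpif1 at -0.18.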

How the data were processed

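Affymetrix Mouse Gene 1.0 ST arrays were hybridized with RNA of 17 samples. The deposited values are on a log2 scale, 1 per probe set and array, as judged from their range of 2.02 to 14.86. Affymetrix Expression Console is named in the submitters' processing notes; normalization method: not given in the sources used here. Of 35557 probe sets, 21789 had 1 symbol in the platform annotation, 1621 several and 12147 none; the brightest per gene was kept. Group means were fitted in limma 3.58.1 under R 4.3.3 with Benjamini-Hochberg adjustment, over 12 arrays for the dominant negative lines and 17 for contrasts with the control line, without further scaling. The fit was tested on simulated data. Named were the members past the threshold with the largest differences (8 per direction for an induction, 4 otherwise), fixed core subunits and isoforms, and up to 3 genes per other list and line with the smallest adjusted p. Where a count of 5 or fewer is listed in full, or Cox7b, Cox7a2, Atp5k or a gene outside that rule appears, it was chosen after its values were seen. The members and lists were chosen with earlier results of these data known. Replicate numbers did not pair samples, so no block was used in the main fits. Correlations of same-numbered deviations were 0.016, 0.135, 0.313 and -0.743 in dnBrg1, dnChd4, dnSnf2h and control. An array gives no read depth; the number of arrays limits the precision. Promoters come from RefSeq (GRCm38.p6).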

Additional observations from a re-analysis of the deposited data

How the results depend on the processing

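All 57 called values of named members kept their direction under every alternative run for them. Several alternatives could not change a direction, because they leave the group means as they were. These were the fits of 17 or 15 arrays and of each line alone, trended and robust eBayes, and removal of dim genes. A kept direction is therefore no check there, and only the calls could move. With 17 arrays, 44 of the 57 no longer passed; members called in dnBrg1, dnChd4 and dnSnf2h inductions were 0, 0 and 0, and in repressed dnBrg1 minus repressed dnChd4 and minus repressed dnSnf2h 6 and 7. The 15-array fit of the dominant negative lines, chosen after seeing the data, moved none of their counts by over 1.5 times; 56 of the 57 values passed in it. Fitting each line alone left 0 in dnSnf2h. Centring on the array median gave 17 in dnBrg1; quantile normalization gave 14, and trended and robust eBayes 15, in dnSnf2h. For contrasts with the control line, the 15-array fit gave 17 members in the control induction and 1 in dnBrg1 minus control. Leaving out each array in turn gave 2 to 8 members in dnBrg1, 3 to 4 in dnChd4, 3 to 16 in dnSnf2h, 4 to 9 in repressed dnBrg1 minus repressed dnChd4, 8 to 18 in repressed dnBrg1 minus repressed dnSnf2h, 0 to 3 in repressed dnChd4 minus repressed dnSnf2h and 0 to 1 in the dnChd4 induction minus the dnSnf2h induction, and 0 in the rest. The fits with an array left out hold fewer samples, and the causes of the changed counts were not tested. With the replicate block, members called were 14 in dnBrg1, 11 in dnChd4 and 15 in dnSnf2h, the last over 1.5 times the count without it, and the block changed no other call count past that size; the numbers pair no samples by the labels. For the repressed comparisons no block was possible, because a block lies inside a line. With 2 arrays a group, median standard errors of 0.1 limit what an induction can show.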
